A study of Mus musculus with 12 samples.

Results

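Primary tumours of 4T1, a mouse mammary carcinoma line whose cells complete metastasis, were compared with primary tumours of 67NR, a line of the same origin whose tumours do not spread. The comparison used 6 of the 12 samples of the series, 3 arrays of each line, chosen by their titles. The other 6 samples, 3 each of the lines 168FARN and 4T07, served to show where 4T1 differed from them as well and to estimate the spread between arrays. The series asked which exons and genes go with metastasis in breast cancer. All groups were grown from cultured lines, by injecting cells into the mammary fat pad (the fourth) of female mice, strain BALB/c and 3 months old, 8 mice with 67NR and 13 with 4T1. No further treatment was given, and no agent or allele separates the groups beyond the lines themselves. Tumours were cut out when the average in a group had reached 1 to 2 cm at the largest dimension. A whole tumour holds host cells as well as injected cells, and in such bulk samples fewer cells of a type and less RNA per cell cannot be told apart. Each behaviour is represented by 1 line, so line and behaviour cannot be told apart either. No source used here says that the 3 samples of a line came from separate animals, so p-values here measure only how far these samples spread, and that spread may be technical.

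Epithelial cells are held together by E-cadherin and desmosomes, carry keratins 8 and 18 as their cytoskeleton, and lose these features when they pass to a mesenchymal state (epithelial-mesenchymal transition, EMT). The transcription factors Zeb1, Zeb2, Snai1, Snai2 and Twist1 drive that passage, in part by binding E-box sequences in promoters of epithelial genes. The splicing regulators Esrp1 and Esrp2 keep epithelial forms of many transcripts, among them those of the receptor gene Fgfr2 and of the adhesion gene Cd44. Tumours of the 4T1 line are also known for the myeloid cells, neutrophils above all, that they draw from the host.

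Levels are log2 signals of a whole-transcript exon array, where a difference of 1 is 2-fold, and the level of a gene is the median over its probesets. Of 15025 genes tested with limma, 3356 (22.3%) were called at an adjusted p under 0.05, of which 1409 (9.38%) were higher and 1947 (13%) lower in 4T1. At least 2-fold differences were found for 689 of the higher and 690 of the lower genes (4.59% of all genes each). The median change over all genes was -0.04. On 44.1% of all genes the 3 arrays of one line lay wholly above those of the other. Medians of the 12 arrays ran from 7.21 to 7.57. Across genes, arrays of 1 line correlated at 0.985 to 0.989 and arrays of different lines of the pair at 0.938 to 0.946. As a scale of background, 95% of the 335 olfactory receptor genes, which mammary tumours should lack, had levels under 5.08. For a gene at such a level in one line, levels are given in place of a fold, and the change may be larger than the values show. Means are given ± SD over 3 arrays, SE is that of the limma contrast, and adjusted p-values of genes are from the limma fit. Array numbers are the replicate numbers of the labels.

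The promoters of 6 genes that rose are shown here, chosen because each holds a short sequence that known regulators bind. They are printed as RefSeq gives them for assembly GRCm38.p6, 5′ to 3′ on the strand of the gene, over the 250 bases before its start. In the 3 epithelial promoters the capitals mark the E-box CACCTG or its reverse complement CAGGTG:
Krt18 (chr15:102027966-102028215, plus strand): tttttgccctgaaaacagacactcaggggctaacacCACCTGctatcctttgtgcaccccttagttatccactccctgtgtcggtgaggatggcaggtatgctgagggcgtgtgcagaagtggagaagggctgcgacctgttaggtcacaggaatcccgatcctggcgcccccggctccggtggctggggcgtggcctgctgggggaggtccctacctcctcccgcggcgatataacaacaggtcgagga
Krt8 (chr15:102004343-102004592, minus strand): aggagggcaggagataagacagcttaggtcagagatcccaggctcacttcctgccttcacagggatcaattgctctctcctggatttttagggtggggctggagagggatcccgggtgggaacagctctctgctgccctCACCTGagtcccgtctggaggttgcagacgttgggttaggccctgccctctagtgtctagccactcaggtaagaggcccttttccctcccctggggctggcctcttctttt
Epcam (chr17:87635729-87635978, plus strand): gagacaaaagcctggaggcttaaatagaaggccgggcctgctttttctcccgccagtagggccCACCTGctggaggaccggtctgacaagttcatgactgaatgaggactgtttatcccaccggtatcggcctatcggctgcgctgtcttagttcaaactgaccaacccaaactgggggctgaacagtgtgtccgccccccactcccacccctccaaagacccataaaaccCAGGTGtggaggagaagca
In the next pair, from hypoxia-induced genes, capitals mark ACGTG, the core bound by hypoxia-inducible factors, or its reverse complement CACGT:
Car9 (chr4:43506776-43507025, plus strand): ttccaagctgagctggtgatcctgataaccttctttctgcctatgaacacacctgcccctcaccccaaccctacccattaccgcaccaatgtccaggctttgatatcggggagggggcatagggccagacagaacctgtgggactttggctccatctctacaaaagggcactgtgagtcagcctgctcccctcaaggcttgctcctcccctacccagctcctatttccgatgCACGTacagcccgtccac
Slc16a3 (chr11:120948817-120949066, plus strand): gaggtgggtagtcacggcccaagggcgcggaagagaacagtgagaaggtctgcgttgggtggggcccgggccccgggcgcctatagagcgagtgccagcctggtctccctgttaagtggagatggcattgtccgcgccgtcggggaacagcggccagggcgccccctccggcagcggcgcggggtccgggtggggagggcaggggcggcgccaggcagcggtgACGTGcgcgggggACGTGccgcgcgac
In the last, from an interferon-induced gene, they mark GAAA, any 2 bases and GAAA, a core of the interferon-stimulated response element:
Ddx60 (chr8:61927837-61928086, plus strand): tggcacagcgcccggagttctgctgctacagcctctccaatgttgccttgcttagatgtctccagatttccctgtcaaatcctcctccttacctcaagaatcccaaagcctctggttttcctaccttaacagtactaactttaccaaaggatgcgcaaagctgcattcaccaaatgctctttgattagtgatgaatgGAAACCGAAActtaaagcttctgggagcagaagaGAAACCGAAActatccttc
The E-box was found on either strand in 18 of the 25 members of the epithelial list that have a promoter in the table (72.0%), against 2320 of 12017 tested genes with one (19.3%). Among the members called higher in 4T1 the share was 14 of 19 (73.7%), and among those not called it was 4 of 6 (66.7%). ACGTG was present in 18 of 30 hypoxia and glycolysis genes (60.0%, against 22.5% of all), in 10 of the 16 called higher (62.5%) and 8 of the other 14 (57.1%). The interferon response motif (GAAA, any 2 bases, GAAA) was present in 6 of 18 interferon genes (33.3%, against 3.25%), in 3 of the 10 called higher (30.0%) and 3 of the other 8 (37.5%). A match describes these letters only and does not show binding.

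Most measured epithelial genes were higher in 4T1 tumours. Of 44 measured genes of epithelial junctions and keratins, 31 rose and 0 fell, 29 of the 31 by at least 2-fold, and the median change was 1.87. The list's mean level was 5.54, 5.58 and 5.79 on the arrays of 67NR and 7.41, 7.54 and 7.66 on those of 4T1, so the lines did not overlap. Krt18, which encodes keratin 18, had levels of 5.95, 5.34 and 7.11 in 67NR and 12.39, 12.18 and 12.65 in 4T1. It was 77.0-fold higher in 4T1 (6.27, SE 0.40, adjusted p = 2.28e-07), the largest change of a gene above background in both lines. Its partner Krt8 stood at 6.47, 6.07 and 7.26 against 12.05, 11.91 and 12.25, a 44.4-fold difference (adjusted p = 4.17e-08). The surface adhesion gene Epcam gave 5.24, 5.13 and 6.83 in 67NR and 10.21, 10.19 and 10.68 in 4T1 (24.7-fold, adjusted p = 2.27e-05). On all 3 of these genes 67NR array 3 was the highest of its line and lay far under every 4T1 array. The samples are labelled as primary breast tumours, and the epithelial markers Epcam and Krt18 stood near the background in 67NR, with means of 5.73 and 6.14 against 5.08.

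The E-cadherin gene Cdh1 had levels of 6.23, 6.04 and 6.36 in 67NR and 8.51, 8.84 and 9.11 in 4T1, 6.11-fold higher (SE 0.25, adjusted p = 7.36e-06). Desmosomal and junction genes rose with it. The desmoglein gene Dsg2 went from 4.2 to 7.3, from the range of the background, the plakoglobin gene Jup rose by 1.99, the tight junction gene F11r by 2.01 and the claudin gene Cldn7 by 1.98. Itgb4, the integrin subunit of hemidesmosomes, rose 15.7-fold (6.50 ± 0.06 to 10.48 ± 0.19, adjusted p = 1.22e-08). The membrane protease inhibitors Spint1 (3.41) and Spint2 (3.84) rose along with their target proteases St14 (2.59) and Prss8 (2.78). Of the transcription factors of epithelial identity, Grhl2 (1.65) and Elf3 (from 4.6 to 6.4) were called, while Ovol1 (0.39), Ovol2 (0.50) and Ehf (0.46) did not pass the test. Grhl2 lost its call without 67NR array 1 (1.55, adjusted p = 0.0528) or array 3 (1.47, adjusted p = 0.0575). Keratins were not uniform: Krt7 (2.29) and Krt14 (2.00) rose, and Krt5 (0.48), Krt15 (0.37), Krt17 (0.56), Krt23 (0.06) and Krt6a (-0.33) did not pass.

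Mesenchymal genes changed in both directions, 8 of 27 higher and 6 lower with a median change of -0.14. Cdh2, the N-cadherin gene that mesenchymal cells carry in place of Cdh1, was at 9.87, 9.89 and 9.96 in 67NR and 5.63, 5.65 and 5.18 in 4T1. It was 21.4-fold lower in 4T1 (SE 0.19, adjusted p = 1.11e-08), and its arrays lay more than 4 apart between the lines. Vim, the vimentin gene, did not pass the test and was high in both, at 13.54, 13.58 and 13.62 against 13.38, 13.41 and 13.39 (-0.19, adjusted p = 0.307). EMT factors differed among themselves. Snai2 fell by 2.29 and Zeb1 also fell, as did the mesenchymal homeobox gene Prrx1 by 2.32 (10.82 ± 0.03 to 8.50 ± 0.18). Twist1 had levels of 9.08, 9.59 and 9.53 in 67NR and 8.73, 9.32 and 8.90 in 4T1, which overlap (-0.42, adjusted p = 0.271), and Snai1 (0.24), Zeb2 (-0.51) and Twist2 (-0.61) did not pass either. S100a4, a calcium-binding protein of motile cells, fell 5.34-fold, from 12.00 ± 0.16 to 9.59 ± 0.14. The osteoblast cadherin Cdh11 (2.24) and the matrix glycoprotein Tnc (2.05, 8.72 ± 0.19 to 10.77 ± 0.30) rose. Tagln, a smooth muscle actin-binding gene, rose by 1.78 and lost its call without 4T1 array 3 (1.65, adjusted p = 0.0612), and without that array 5 genes of the list were called higher.

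**Figure D1:**
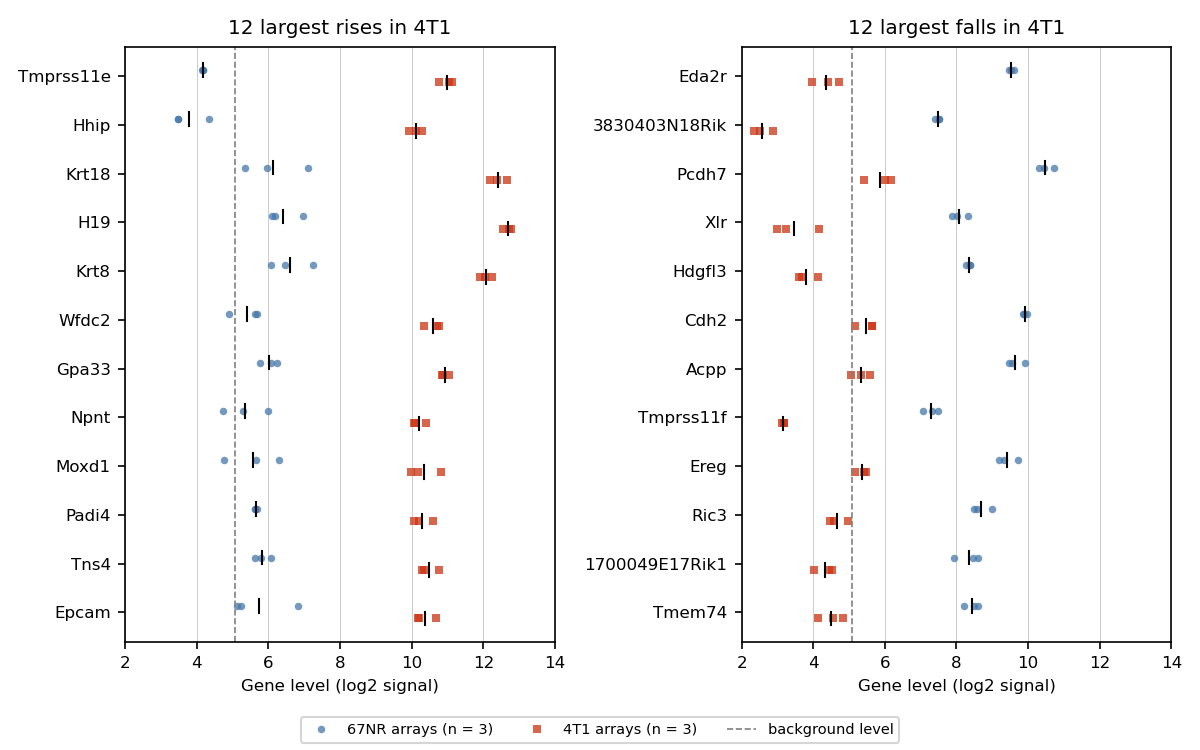
Gene levels (log2 signal, x axis) on each array of 67NR (blue circles, n = 3) and 4T1 (red squares, n = 3) for the 12 genes that rose most and the 12 that fell most, with a black tick at each mean and a dashed line at the background level of 5.08. Arrays of the lines do not overlap on any of the 24 genes, and Tmprss11e, Hhip, Eda2r, 3830403N18Rik, Xlr, Hdgfl3, Tmprss11f, Ric3, 1700049E17Rik1 and Tmem74 have one line below the dashed line.

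Beyond the keratins, the largest rises were as follows. From the range of the background, Tmprss11e, a membrane serine protease, rose from 4.17 ± 0.02 to 10.98 ± 0.19 and Hhip, an inhibitor that binds hedgehog ligands, from 3.77 ± 0.50 to 10.11 ± 0.19 (adjusted p = 5.67e-07 and 3.03e-09). H19, an imprinted long non-coding RNA, stood at 6.96, 6.10 and 6.19 in 67NR and 12.79, 12.71 and 12.54 in 4T1, 76.9-fold higher (SE 0.45, adjusted p = 5.6e-07). On each of these 3 genes the nearest arrays of the lines lay more than 5 apart. Wfdc2, which encodes a secreted protein with whey acidic protein domains, rose 36.9-fold, the cell surface gene Gpa33 29.7-fold and the matrix gene Npnt, encoding nephronectin, 28.9-fold. Moxd1, a monooxygenase-like gene (27.0-fold), Padi4, a peptidylarginine deiminase that modifies histones in neutrophils (25.2-fold), and Tns4, a focal adhesion tensin (24.9-fold), completed the 12 with Epcam.

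Among the falls, Eda2r, a receptor for ectodysplasin that p53 induces, went from 9.61, 9.52 and 9.46 to 4.73, 3.96 and 4.41, under the level of background (adjusted p = 8.97e-09). Pcdh7, a protocadherin, was 24.7-fold lower in 4T1 (10.49 ± 0.22 to 5.86 ± 0.38), and Acpp, the prostatic acid phosphatase gene, lower by 4.32 on the log2 scale (9.64 ± 0.24 to 5.32 ± 0.26). Ereg, which encodes the EGF family ligand epiregulin, was at 9.33, 9.71 and 9.20 in 67NR and 5.46, 5.18 and 5.43 in 4T1 (16.6-fold lower, adjusted p = 6.86e-09). Xlr (8.06 ± 0.23 to 3.47 ± 0.62), the HDGF relative Hdgfl3 (8.34 ± 0.07 to 3.80 ± 0.28), the serine protease Tmprss11f (7.29 ± 0.21 to 3.17 ± 0.04), the acetylcholine receptor chaperone Ric3 (8.69 ± 0.27 to 4.67 ± 0.27), Tmem74 (8.43 ± 0.19 to 4.51 ± 0.36) and the transcripts 3830403N18Rik and 1700049E17Rik1 reached the background.

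The tumour matrix differed as well. Of 33 collagens and matrix assembly genes, 18 rose and 1 fell, with a median change of 0.74. Col12a1, a collagen of fibril surfaces, had levels of 7.39, 6.55 and 6.85 in 67NR and 10.19, 10.33 and 10.63 in 4T1, 11.0-fold higher (adjusted p = 1.59e-05). The fibrillar collagens Col1a1 (1.94), Col1a2 (1.78) and Col3a1 (1.24), the matricellular genes Thbs2 (2.94), Postn (2.06) and Thbs1 (1.65) and the collagen hydroxylase P4ha2 (1.91) rose, and the lysyl oxidase Loxl1 fell by 0.57. The call of Loxl1 was lost without any 1 of the 6 arrays of the pair (adjusted p = 0.0783 to 0.139). Basement membrane collagens Col4a1 (-0.16) and Col4a2 (-0.26) did not pass. Markers of fibroblasts, the cells that secrete much of this matrix, did not move one way: 5 of 18 rose (the proteoglycan Lum by 1.46, Thy1 by 1.15) and 3 fell (Pdpn, Fbln1 and Ogn), with a mean level of 7.93, 7.96 and 7.85 in 67NR and 7.70, 7.75 and 7.96 in 4T1. The part of fibroblast number in the collagen values was not tested. Pdpn, the podoplanin gene that fibroblasts and some tumour cells carry, was 14.2-fold lower in 4T1 (11.75 ± 0.11 to 7.92 ± 0.17, adjusted p = 5.24e-09).

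Among 34 genes of proteases outside the cell and of their inhibitors, 8 rose and 3 fell. Serpine2, an inhibitor of thrombin and plasminogen activators, rose 19.3-fold (6.74 ± 0.25 to 11.01 ± 0.26). The collagenase gene Mmp13 rose by 2.24, Mmp3 by 1.20, the membrane-bound Mmp14 by 1.18 and the osteoclast cathepsin Ctsk by 1.37. Mmp12, a macrophage elastase, was at 8.80, 6.36 and 7.80 in 67NR and 9.73, 10.46 and 9.82 in 4T1, a rise of 2.35 with a wide spread in 67NR (SE 0.59, adjusted p = 0.0112). Mmp9 did not pass (1.23), and the serine protease Htra1 fell by 1.04.

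In the TGF-beta, BMP and Wnt lists, more members rose than fell. Among 28 TGF-beta ligands, receptors and targets 13 rose and 0 fell (median 0.45), including the latent TGF-beta binding proteins Ltbp4 (2.10), Ltbp2 (1.37) and Ltbp3 (0.89), the ligands Tgfb3 (1.14) and Inhba (1.79), the receptor Tgfbr1 (1.06) and the target Ccn2 (1.59), while Tgfb1 (0.55), Smad7 (0.35) and Tgfbr2 (0.09) did not pass. Of 22 BMP and Id genes 7 rose and 0 fell. The ligand Bmp7 had levels of 4.98, 5.08 and 5.41 in 67NR and 9.71, 9.66 and 8.98 in 4T1, 19.6-fold higher (SE 0.35, adjusted p = 1.49e-06), and the antagonist Grem1 rose from 4.55 ± 0.41, in the background, to 7.44 ± 0.44. The Wnt list had 12 of 32 higher and 1 lower. In it rose the receptor Fzd6 (16.8-fold, 5.97 ± 0.24 to 10.03 ± 0.10), the ligands Wnt7b (2.02) and Wnt5a (1.59) and the antagonist Sfrp1 (1.82), while the feedback target Axin2 (-0.17) did not pass.

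Ligands of the EGF receptor moved in opposite directions. Tgfa, encoding transforming growth factor alpha, stood at 5.61, 5.75 and 6.05 in 67NR and 8.90, 9.07 and 9.06 in 4T1 (9.23-fold higher, adjusted p = 5.62e-08). Betacellulin, from Btc, was 9.89-fold lower (8.43 ± 0.68 to 5.13 ± 0.43), as Ereg was lower. The receptor Egfr rose by 1.36, and Erbb2 (0.53) and Erbb3 (0.45) did not pass. Of 13 FGF receptors and ligands, 2 rose and 3 fell. Fgfr2, a receptor of epithelia in one splice form, rose 4.86-fold (7.76 ± 0.18 to 10.04 ± 0.09) and Fgfr1, more common in mesenchyme, fell 4.05-fold (10.67 ± 0.14 to 8.66 ± 0.20). In the MAP kinase feedback list, 1 of 16 rose and 2 fell (18.8% called, under the 22.3% of all genes). Spry1, an inhibitor of receptor signalling, rose by 2.71, and the phosphatase Dusp1 fell by 1.34.

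**Figure D2:**
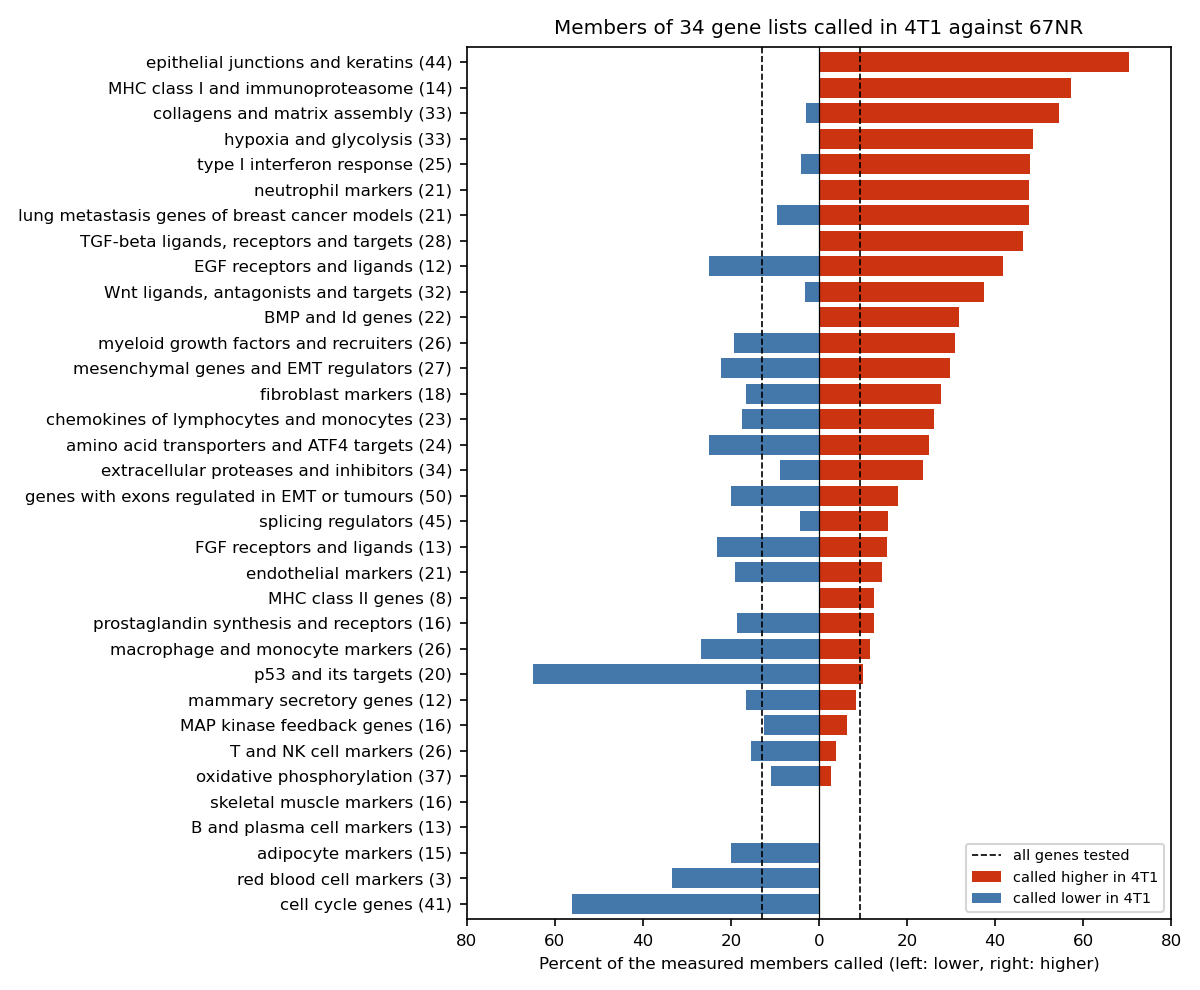
Share of the measured members (number in brackets) of 34 gene lists that were called higher (red, to the right) or lower (blue, to the left) in 4T1 than in 67NR, in percent on the x axis, with dashed lines at the shares of all genes, 9.38% and 13%. The epithelial list reaches 70.5% higher with 0 lower, and p53 targets and cell cycle genes have the longest blue bars.

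Genes of hypoxia and glycolysis rose in 16 of 33 cases with 0 falls (median 0.65), and their mean level was 9.18, 8.99 and 8.97 in 67NR and 9.77, 10.03 and 9.86 in 4T1. Car9, a carbonic anhydrase induced by low oxygen, had levels of 6.52, 6.32 and 6.14 against 9.71, 10.27 and 9.62 (11.7-fold, adjusted p = 2.38e-05). The aldolase Aldoc rose 8.80-fold (6.42 ± 0.09 to 9.55 ± 0.07), the lactate exporter Slc16a3 4.45-fold, the enolase Eno2 by 2.02, the pyruvate dehydrogenase kinase Pdk1 by 1.59 and the mitophagy gene Bnip3 by 1.34. Other classical targets, Vegfa (-0.16), Slc2a1 (0.46), Ndrg1 (0.39) and Pgk1 (0.04), did not pass. Of 37 genes of oxidative phosphorylation, 1 rose and 4 fell (13.5% called, under the 22.3% of all genes).

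Cell cycle genes were lower in 4T1: 23 of 41 fell and 0 rose, with a median of -0.57, and their mean level was 9.66, 9.82 and 9.73 in 67NR against 9.18, 9.16 and 9.16. At an unadjusted p under 0.05, limma found 1 cell cycle gene higher, and over the other lists given with 0 in a direction it found 0 to 2 there, except for the B and plasma cell markers described with the host cells, with 5 higher. The proliferation marker Mki67 fell by 0.93 (10.40 ± 0.13 to 9.47 ± 0.12), the mitotic kinase Cdk1 by 1.08, Ccna2 by 0.88 and the cyclin D1 gene Ccnd1 by 0.58. Without 67NR array 2 the count was 12, and without 4T1 array 2 or 3 it was 15. Inhibitors of the cycle fell too: Cdkn1a, encoding p21, was at 10.73, 10.88 and 10.83 in 67NR and 8.61, 9.16 and 8.50 in 4T1 (4.16-fold lower, adjusted p = 3.82e-05), and Cdkn2a, the Ink4a/Arf gene, fell 3.09-fold (8.26 ± 0.43 to 6.63 ± 0.23). Falls thus covered genes that drive division and genes that stop it.

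The list of p53 targets, to which Cdkn1a also belongs, had 13 of 20 members lower and 2 higher in 4T1 (median -0.84). Mdm2, the ubiquitin ligase that p53 induces and that degrades it, was at 9.98, 10.28 and 10.18 against 8.57, 8.78 and 8.64 (2.81-fold lower, adjusted p = 2e-05). Eda2r, Gtse1 (-1.77), Zmat3 (-1.48), Ccng1 (-1.38) and Phlda3 (-1.24) fell likewise. The members that rose were Perp, a desmosomal protein also in the epithelial list (from 4.7, in the background, to 9.0), and the death receptor Tnfrsf10b (2.07). Fas (0.59), Pmaip1 (0.18) and Rps27l (-1.10) did not pass. The level of Trp53 itself is not reported here.

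Of 24 amino acid transporters and targets of the stress factor ATF4, 6 rose and 6 fell. The cystine transporter Slc7a11 rose by 2.53 (to 8.13 ± 0.58 in 4T1) and the stress gene Atf3 by 1.34, while the asparagine synthetase Asns fell by 0.79. Without 67NR array 2 or without 4T1 array 3, 2 of the falls were called. In the prostaglandin list 2 of 16 rose, led by the prostaglandin transporter Slco2a1 (2.90), and 3 fell, led by the cyclooxygenase Ptgs1 (-1.67).

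Genes of host cells were checked by marker lists, since the tumours are mixtures. Of 16 skeletal muscle markers 0 were called (1 at an unadjusted p under 0.05 by limma). Mammary secretory genes had 1 of 12 higher and 2 lower (25% called), and red blood cell markers 1 of 3 lower (33.3%). Neither share was under the 22.3% of all genes. Of the 12 mammary secretory genes, 4 lay in the background in both lines. Of 15 adipocyte markers 3 fell (20% called, under the 22.3% of all genes), led by the fatty acid carriers Cd36 (-1.67) and Fabp4 (-1.70). On that list 67NR array 3 had the highest mean level, 8.05 against 6.90 to 7.21 on the other 5 arrays. Endothelial markers had 3 of 21 higher and 4 lower, with the vessel and progenitor gene Cd34 falling most (-2.13) and Pecam1 (-0.19) and Cdh5 (-0.69) not passing. Of 13 B and plasma cell markers 0 passed limma's test, and 5 were higher at an unadjusted p under 0.05. Their mean level was 7.09 and 7.15 on 4T1 arrays 1 and 3 but 5.42 on array 2, below the 5.78 to 5.92 of 67NR.

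**Figure D3:**
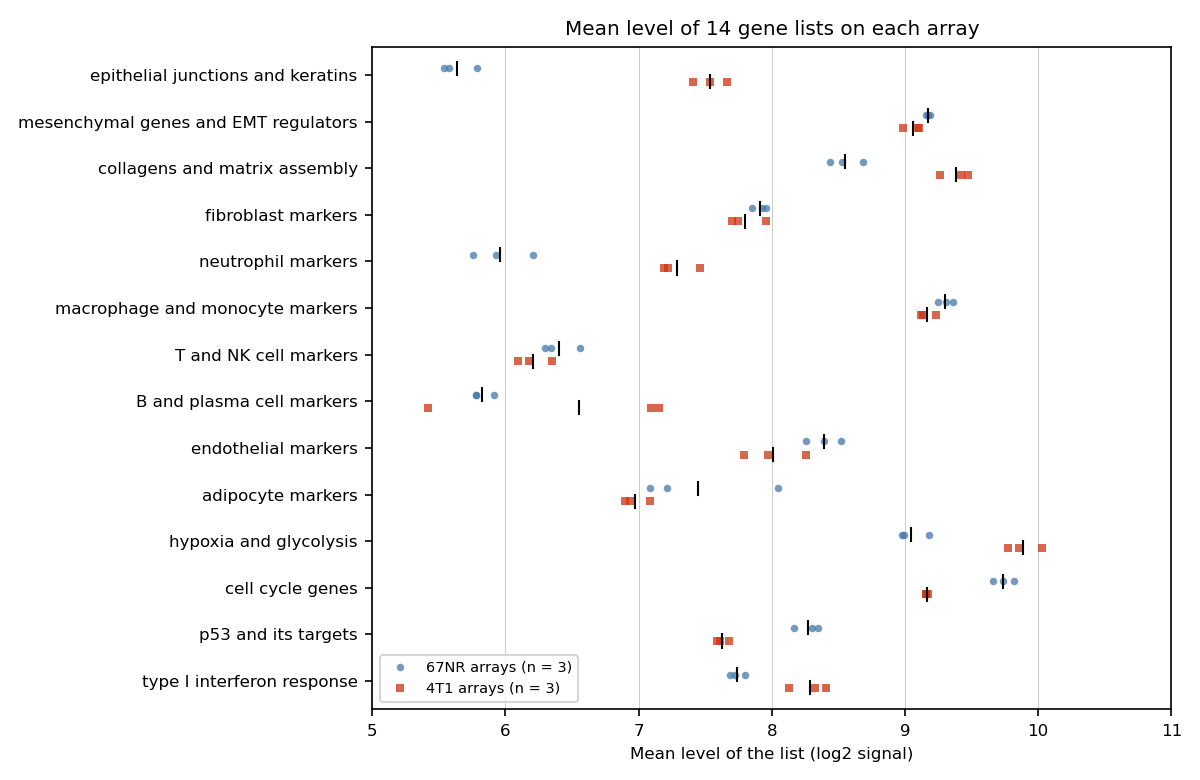
Mean level (log2 signal, x axis) of 14 gene lists on each array of 67NR (blue circles, n = 3) and 4T1 (red squares, n = 3), with a black tick at the mean of a line. The arrays of the lines do not overlap on the epithelial, collagen, neutrophil, hypoxia, interferon, cell cycle and p53 lists. On 3 more lists they nearly touch. The nearest arrays of 67NR and 4T1 are at 9.16 and 9.11 (mesenchymal), 9.25 and 9.23 (macrophage) and 7.086 and 7.082 (adipocyte). Arrays of the lines did not overlap on 44.1% of all single genes. The B cell list has 4T1 array 2 at 5.42, apart from the other 2 arrays of its line.

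Neutrophil markers were higher in 4T1, 10 of 21 with 0 lower and a median of 0.89. The list's mean level was 5.76, 5.93 and 6.20 in 67NR and 7.19, 7.46 and 7.22 in 4T1. It was 7.71, 8.05 and 7.99 in 4T07. Against 4T07, 0 members were called higher in 4T1 and 3 lower, with a median of -0.57. Lcn2, lipocalin 2 of neutrophil granules and of epithelia, stood at 8.02, 8.54 and 9.09 against 12.04, 12.78 and 12.52 (14.9-fold, adjusted p = 8.38e-06). The calgranulins S100a9 (5.41 ± 0.67 to 7.61 ± 0.33, adjusted p = 0.00109) and S100a8 (1.76), the decoy receptor Il1r2 (1.97), the receptor Trem1 (2.06) and the granule gene Ngp (from 4.5, in the background, to 6.4) rose. Granule genes of immature cells, Mpo (0.45), Ltf (0.54) and Camp (0.09), and the receptor Csf3r (0.45) did not pass. Lcn2 and Padi4, the members that changed most, are not limited to neutrophils, and the part of tumour cells in their levels was not tested.

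Growth factors and recruiters of myeloid cells moved in both directions, with 8 of 26 higher and 5 lower. Csf3, which encodes the granulocyte colony-stimulating factor, had levels of 5.15, 5.36 and 5.56 in 67NR and 7.44, 7.62 and 7.28 in 4T1, 4.26-fold higher (SE 0.21, adjusted p = 8.75e-06). The epithelial cytokine gene Tslp rose most, from 3.05, 3.08 and 2.83, in the background, to 7.43, 7.64 and 7.62 (adjusted p = 6.33e-08). Also higher were the neutrophil chemokine Cxcl2 (1.73) and the interleukin genes Il1a (1.68) and Il1b (1.47). Lower in 4T1 were Il33, an alarmin (5.04-fold, 10.09 ± 0.15 to 7.75 ± 0.14), Kitl, the stem cell factor (3.36-fold, 10.84 ± 0.06 to 9.09 ± 0.10), among 5 lower members, while Csf1 (0.02), Csf2 (0.38) and Cxcl1 (-0.40) did not pass. The count of falls was 3 without any 1 of the 67NR arrays or 4T1 array 2, and 2 without 4T1 array 1. Of 23 other chemokines 6 rose, among them Cxcl11 (1.47) and Cxcl14 (1.30), and 4 fell, among them Cxcl12 (5.25-fold, 8.82 ± 0.37 to 6.42 ± 0.12) and the monocyte chemokine Ccl2 (3.59-fold, 9.47 ± 0.03 to 7.63 ± 0.26).

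Macrophage and monocyte markers had 3 of 26 members higher and 7 lower, with mean levels of 9.36, 9.30 and 9.25 in 67NR and 9.14, 9.23 and 9.12 in 4T1. The pan-macrophage genes Cd68 (0.04), Csf1r (-0.35) and Lyz2 (0.00) did not pass. Arg1, arginase 1 of suppressive myeloid cells, was at 9.48, 8.37 and 8.39 in 67NR and 11.31, 11.40 and 11.51 in 4T1 (6.33-fold higher, adjusted p = 0.00026). Among the 7 lower members, Vsig4 fell by 2.47 (8.41 ± 0.36 to 5.95 ± 0.24), Siglec1 by 1.07 and Folr2 by 0.87. Without 67NR array 1 or 4T1 array 1 the lower count was 4. Among 26 T and NK cell markers, 4 fell and 1 rose (19.2% called, under the 22.3% of all genes). The median change of this list was -0.04, as over all genes. The cytotoxic granule gene Gzma fell 5.69-fold (8.40, 8.21 and 8.42 to 5.82, 5.83 and 5.86), and the NK cell genes Nkg7 (-1.24) and Il2rb (-1.01) fell, while Cd3e (0.11), Cd4 (-0.11), Cd8a (-0.60) and Foxp3 (0.04) did not pass.

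Of 25 type I interferon response genes, 12 rose and 1 fell (median 0.66). The helicase gene Ddx60 had levels of 6.12, 5.72 and 5.84 in 67NR and 7.37, 7.28 and 7.44 in 4T1 (2.77-fold, adjusted p = 0.00179), and the RNA sensor Ifih1 rose by 1.33, Oasl2 by 1.29, and the factors Irf9 by 1.01 and Stat2 by 0.74. Ifit2 fell by 1.14, and Mx1 (-0.03), Rsad2 (0.03) and Irf7 (0.60) did not pass. Without 67NR array 2 or 4T1 array 3, 7 rises were called. Of 14 genes of MHC class I and the immunoproteasome, 8 rose and 0 fell. Among them were the proteasome subunits Psmb8 (4.09-fold, 7.32 ± 0.33 to 9.35 ± 0.11), Psmb10 (1.82) and Psmb9 (1.06) and the peptide transporter genes Tap1 (0.71) and Tap2 (0.70), whereas the class I chains H2-K1 (0.35), H2-D1 (0.07) and B2m (0.06) did not pass. Among 8 MHC class II genes H2-DMa was called (0.64), a call lost without 67NR array 2 (0.63, adjusted p = 0.0558), 67NR array 3 (0.54, adjusted p = 0.0722) or 4T1 array 2 (0.57, adjusted p = 0.071).

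The list of lung metastasis genes of breast cancer models had 10 of 21 members higher and 2 lower (57.1% called, against 22.3% of all genes). Of the 21, 4 lay in the background in both lines, and 0 were called higher in 4T1 than in 4T07. Those higher included Lcn2, Postn, Tnc, Csf3 and the adhesion receptor Vcam1 (1.36). Ereg and Map2k6 (-1.30) were lower, and Id1 (0.13), Sparc (-0.22) and Cxcl1 did not pass.

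Exon probesets were used to look for signal that changed otherwise than the gene as a whole. In limma's diffSplice test the change of a probeset is set against the other probesets of its gene, and a relative change of at least 1 at an adjusted p under 0.05 was called. Of 110320 probesets in 7349 genes, 812 (0.736%) were called, 435 relatively higher (0.394%) and 377 relatively lower (0.342%) in 4T1, in 438 genes (5.96%). A second test, of the splicing index (the probeset minus the median of its gene on each array), also called 414 of these (0.375%), in 207 genes (2.82%). Because diffSplice pools the spread of all probesets of a gene as if they were independent, its p-values also depend on their number. The following values concern the 414. The exon under each probeset was not looked up here, so a call is a difference along the gene and not a named splice form. Whether a called probeset tracks its transcript was not tested.

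Few of the 414 moved by at least 0.5 against a gene that changed at least 2-fold. In 157 (37.9%) the probeset itself moved by less than 0.5 in a gene that changed at least 2-fold, 98 (23.7%) moved with the gene by less, 79 (19.1%) moved with it by more, and 72 (17.4%) lay in 52 genes that changed less than 2-fold. Only 3 moved by at least 2-fold against a gene that changed at least 2-fold. The 5 others moved against such a gene by at least 0.5 but less than 2-fold. The flat probesets had a median level of 7.86 in 67NR, and those that moved by more than their gene 5.34. In 26 of the 207 genes (12.6%) the level of the gene was not called.

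Fgfr2 had the largest relative change and 2 of the 3 probesets that moved at least 2-fold against a gene changed at least 2-fold. Probeset 5177161 had levels of 7.32, 7.87 and 7.27 in 67NR and 2.54, 3.06 and 2.77 in 4T1, while the gene rose by 2.28. Its change relative to the gene was -6.36 (diffSplice adjusted p = 1.32e-52, splicing index adjusted p = 5.86e-07). Probeset 5179865 went from 7.75, 7.74 and 7.16 to 3.89, 3.87 and 3.72 (relative change -5.35). Both ended below the background level of genes in 4T1. Probeset 5026159 went the other way, from 5.01, 6.31 and 6.34 to 10.64, 10.62 and 10.52 (relative change 3.46, adjusted p = 4.43e-22). Of the 24 probesets of Fgfr2 in the test, 6 were called by both tests. Fgfr2 is known for a pair of mutually exclusive exons, of which Esrp1 favours the epithelial one. Esrp1 itself had levels of 4.03, 4.43 and 5.15 in 67NR and 7.65, 8.09 and 7.82 in 4T1 (SE 0.50, adjusted p = 0.000302), and Esrp2 rose by 1.57.

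**Figure D4:**
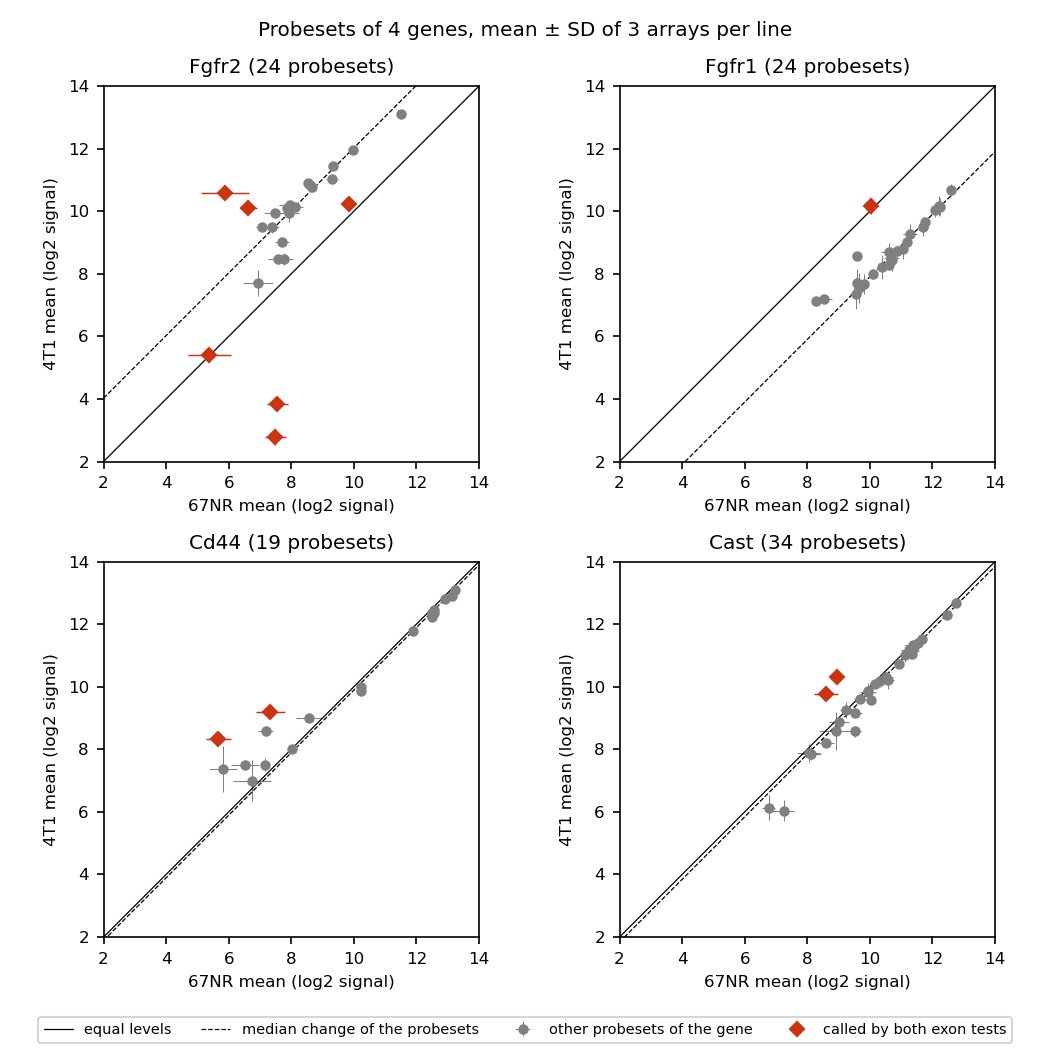
Mean level in 67NR (x axis, log2 signal) against 4T1 (y axis, log2 signal) of each tested probeset of Fgfr2, Fgfr1, Cd44 and Cast, with bars of ± SD (n = 3 arrays per line), a solid line of equal levels and a dashed line at the median change of the probesets of the gene. Red diamonds are probesets called by both exon tests: in Fgfr2, 2 lie far under the solid line while most lie above it, and in Cd44 and Cast 2 each lie above probesets that follow the line.

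Cd44, a hyaluronan receptor with a run of variable exons, was not called as a gene (0.15, adjusted p = 0.726), and 10 of its 19 probesets had levels above 9 in both lines. Probeset 4712893 rose from 5.46, 6.14 and 5.41 to 8.38, 8.22 and 8.42 (relative change 2.39, adjusted p = 1.14e-08) and probeset 4964816 from 7.33 ± 0.46 to 9.19 ± 0.16 (1.54, adjusted p = 0.00123). In Fgfr1, where 23 of 24 probesets fell by at least 1, probeset 5333109 stayed at 10.04 ± 0.14 and 10.18 ± 0.25. Cast, which encodes the calpain inhibitor calpastatin, was not called as a gene either (0.02, adjusted p = 0.956), while its probesets 5424210 (8.94 ± 0.11 to 10.31 ± 0.12) and 4667776 (8.60 ± 0.38 to 9.78 ± 0.09) rose. In Itgb4, 11 of 42 probesets were called by both tests, of which 8 changed by less than the gene and 3 rose by more. Of 46 tested genes in the list of exons regulated in EMT or tumours, these 5 had a probeset called by both tests, and 11 had one called by diffSplice.

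The other 9 genes with the largest relative changes, after Fgfr2, had risen by at least 2-fold as genes: Moxd1, Padi4, Serinc2, Nptx1, Lad1, Coro6, Epcam, Fzd6 and Tns4. In Moxd1, Serinc2, Nptx1 and Fzd6 the probeset with that change was flat, as in Moxd1, where probeset 4432992 was at 9.50 ± 0.14 and 9.59 ± 0.19. In Padi4 and Epcam it rose by less than the gene. In Lad1, an anchoring filament gene, and Coro6, an actin-binding gene, called probesets lay on both sides of the gene, from flat ones to probeset 5022292 of Lad1, which rose from 4.01 ± 0.98 to 10.39 ± 0.09. Among genes not called as a whole, chosen here after their values were seen, Med24, a Mediator subunit gene (0.07, adjusted p = 0.807), had 7 of 27 probesets that rose relative to the rest. Among them, probeset 4641113 went from 10.62, 10.83 and 10.58 to 12.14, 12.27 and 12.10. Dmrta2 (0.36) had 1 of 14, probeset 5596969, which rose from 4.58 ± 0.47 to 8.16 ± 0.06.

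Of 45 splicing regulators 7 rose and 2 fell, 9 of 45 called, a share near the 22.3% of all genes. Besides Esrp1 and Esrp2, Mbnl2 (1.25), the helicase Ddx17 (1.05) and Rbm47 (0.94), which promotes epithelial splicing, rose, and Mbnl1 (-0.39) and Rbfox2 (-0.43) fell. The calls of Mbnl1 and Rbfox2 were lost without any 1 of the 6 arrays of the pair (adjusted p = 0.0669 to 0.15 and 0.0614 to 0.154). The SR protein genes, Srsf1 to Srsf7 among them, the polypyrimidine tract binder Ptbp1 (0.07) and the heterogeneous nuclear ribonucleoproteins did not pass.

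Few of the genes that separated 4T1 from 67NR were also called against 4T07. Of the 1379 genes called with an at least 2-fold difference from 67NR, 121 (8.77%) were also called in the direct contrast of 4T1 with 4T07 and 978 (70.9%) in that with 168FARN. The contrast with 4T07 called 357 of the 15025 genes (2.38%), and that with 168FARN 4688 (31.2%). Without 1 array of 4T1 the first count fell to 156 (array 1), 233 (array 2) or 224 (array 3). Of the 44 epithelial genes, limma called 0 between 4T1 and 4T07 (Krt18 0.73, adjusted p = 0.48, and Cdh1 0.18, adjusted p = 0.835). At an unadjusted p under 0.05, 7 of them were higher in 4T1 and 2 lower. In turn, 29 were higher in 4T1 than in 168FARN. Cdh2 was at 5.16 in 168FARN and 5.63 in 4T07, so its high level was found in 67NR. Krt8 was high in 168FARN (11.44) as well as in 4T07 (11.64), and its difference from 168FARN did not pass (0.63, adjusted p = 0.118). Tslp was lower in 4T1 than in 4T07 (10.80), with a log2 difference of -3.24 (adjusted p = 4.18e-05), and Twist1, with no call against 67NR, was higher in 4T1 than in 4T07 by 1.68 (adjusted p = 0.00258).

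**Figure D5:**
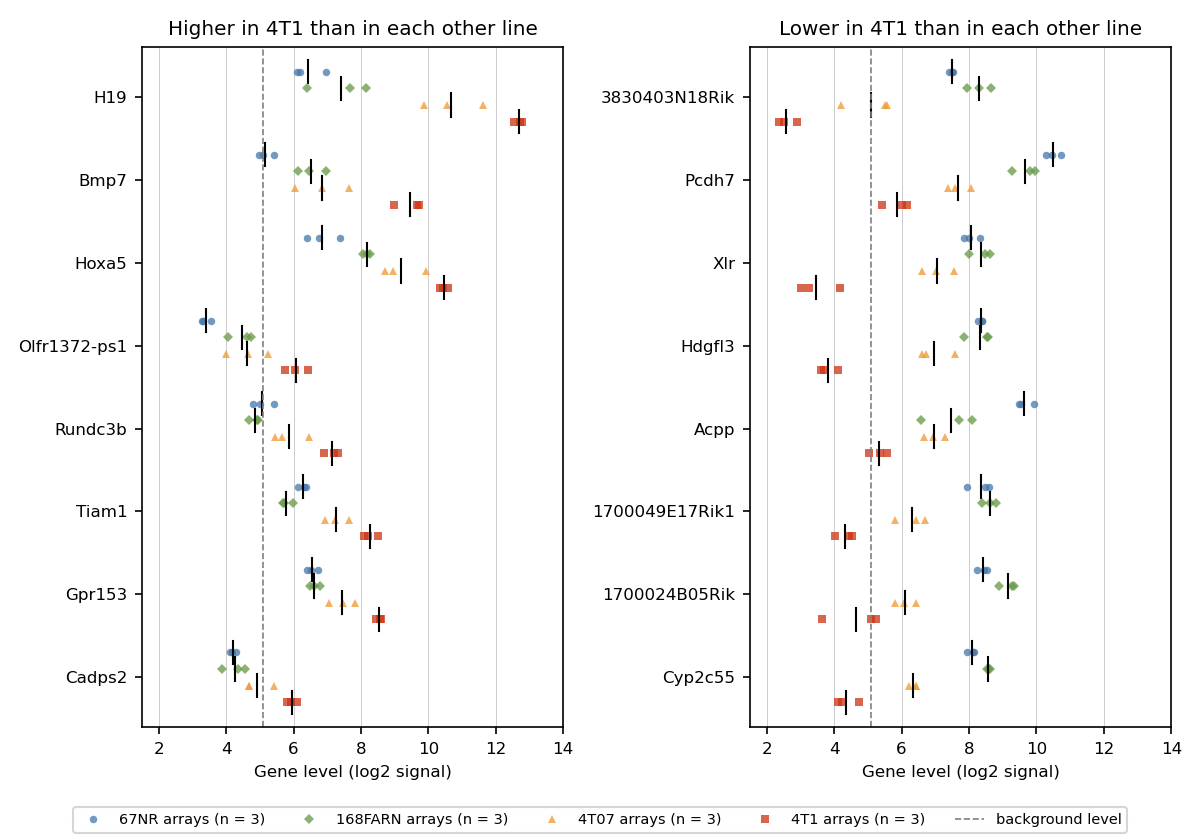
Gene levels (log2 signal, x axis) on the 3 arrays of each of the 4 lines for the 8 genes highest and the 8 lowest against 67NR among those that set 4T1 apart from each other line, with black ticks at the means and a dashed line at the background level of 5.08. For H19, Bmp7 and Hoxa5 the 4T1 arrays (red squares) lie above those of the other 3 lines, and 4T07 is the next highest.

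Genes that set 4T1 apart from all 3 other lines, called in each contrast with a difference of at least 1 in 1 direction, were 12 higher (0.0799% of genes) and 42 lower (0.28%). H19 was higher than in 4T07 by 2.00 (adjusted p = 0.0326) and than in 168FARN by 5.27. Bmp7 exceeded 4T07 by 2.61 (adjusted p = 0.00129), the homeobox gene Hoxa5 by 1.25 (adjusted p = 0.0391) and Tiam1, an activator of the GTPase Rac, by 1.01 (adjusted p = 0.0118). Rundc3b, Gpr153, Cadps2 and the pseudogene Olfr1372-ps1 were the other 4 of the 8 that differed most from 67NR. Among the 42 lower genes, Xlr was at 7.06 in 4T07 and 8.36 in 168FARN against 3.47 in 4T1, and Hdgfl3 at 6.96 and 8.31 against 3.80. Pcdh7, Acpp, 3830403N18Rik, 1700049E17Rik1, 1700024B05Rik and the cytochrome P450 gene Cyp2c55 made up the 8 that fell most. The higher count was 2 without 4T1 array 1 and 5 without 4T1 array 2.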

How the data were processed

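Total RNA of primary tumours was labelled with a whole-transcript kit and hybridised to Affymetrix mouse exon arrays, 1 array per sample, per the labels. The values deposited by the authors are log2 signals, 1 per probeset and array. The scale was read from their range, and their summarization and normalization are not given in the sources used here. They were used as deposited. For arrays no read depth exists, and 3 arrays per line limit the precision.

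Of 228090 probesets, 207232 had 1 gene symbol in the platform annotation, 3882 several and 16976 none, and only the first were used. Symbols were updated through RefSeq genes of GRCm38.p6 (14055 current, 2111 updated, 41 kept). A gene's level was the median of its probesets, for 15025 genes with at least 3. All 12 arrays entered 1 limma fit (3.58.1, R 4.3.3) with a mean per line and no covariate, and p-values were adjusted by Benjamini-Hochberg over all genes. An exact permutation test of 3 against 3 arrays cannot give a p under 0.1. The exon tests used probesets above the 25th percentile, in genes above the 50th percentile with at least 4 such probesets, and the fit was tested on simulated data.

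Genes named are the 12 largest rises and falls among called genes above background in the higher line, up to 5 called members with the largest change per list with members whose role the account needs, Cdh1, Cdh2, Epcam, Krt8, Krt18, Vim, Twist1, Csf3 and Esrp1, the 10 genes with the largest relative exon change, and the 8 genes each way that differ most among those apart from every line. The members and lists were chosen with earlier results of these data known. Alternatives tried were quantile normalization, means of probesets, other filters, the 6 arrays of the pair alone, a variance trend with a robust prior, a replicate block and leaving out each array.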

Additional observations from a re-analysis of the deposited data

How the results depend on the processing

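Under 6 other ways of processing and the replicate block, no count of called genes that could be computed moved by more than 1.5 times, and the total called without 1 array ranged from 2441 to 2743. Calls of single genes were more fragile: of 4281 values for 330 named genes and called list members, 377 lost the call, 337 of them without 1 array, and 0 reversed. For exons the settings mattered. Restricting the test to probesets above the 50th percentile called 501, which held 51.2% of the 812, and the splicing index called 533, of which 414 were. Leaving out 1 array at a time gave 629 to 764 exon probesets. It gave 156 to 332 genes against 4T07, 2 to 13 that set 4T1 apart upward, 12 to 19 lower cell cycle genes, 7 to 12 higher interferon genes, 4 to 5 lower macrophage markers, 2 to 4 lower myeloid factors, 5 to 8 higher mesenchymal genes, 2 to 5 lower amino acid and ATF4 genes and 6 to 8 lower genes of the regulated-exon list. The cause of these shifts was not tested, beyond the fewer arrays in the fit.

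Same-numbered arrays of the lines deviated together at r = 0.0071, 0.0897 and 0.1908, so the numbers were not taken as pairs. With the number as a replicate block 3457 genes were called and 864 exon probesets, and 8 of the 330 genes lost their call, none of which the account above names. Leaving out 1 array leaves a line with 2, and genes under the background level have no measured fold. The fit on 6 arrays gives no contrast with 4T07 or 168FARN, so those counts were not computed there.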

Other observations

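Genes of mast cells, granule-bearing cells of the host that need the stem cell factor Kitl, were lower in 4T1 tumours. This list was chosen after values were seen. Of 11 measured genes 9 were called lower and 0 higher, against 13% lower among all genes, and at an unadjusted p under 0.05 limma also found 0 higher. The carboxypeptidase Cpa3 had levels of 10.07, 10.42 and 9.13 in 67NR and 6.23, 6.41 and 5.99 in 4T1 (adjusted p = 3.39e-06), and the tryptase Tpsab1 11.62, 11.98 and 10.88 against 8.03, 8.26 and 7.38 (adjusted p = 4.34e-06). The surface receptor Mrgprb1 (6.98 ± 0.43 to 3.39 ± 0.39) and the IgE receptor chain Fcer1a (6.66 ± 0.58 to 4.55 ± 0.27) ended in the background. Kit, the receptor of Kitl, did not pass (-0.57, adjusted p = 0.108), nor did Hdc (0.28). In all these genes that were called, 67NR array 2 was the highest of its line. Cpa3 was at 9.91 in 168FARN and 6.39 in 4T07, and its difference between 4T1 and 4T07 did not pass (-0.18, adjusted p = 0.883).

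Genes of the Hoxa cluster, also chosen after values were seen, were higher in 4T1 in 6 of 9 measured cases, against 9.38% of all genes. They were led by Hoxa5 (3.61), Hoxa2 (2.18), Hoxa3 (1.66), Hoxa6 (1.61) and Hoxa10 (1.15), while Hoxa7 (0.22), Hoxa9 (0.55) and Hoxa11 (0.24) did not pass. Hoxa3 was higher in 4T1 than in 4T07 by 0.81 (adjusted p = 0.0403), as was Hoxa5 by 1.25. The differences of Hoxa2 (0.17), Hoxa4 (0.50), Hoxa6 (0.43) and Hoxa10 (0.18) from 4T07 did not pass. Among 11 imprinted genes chosen in the same way, 4 rose and 2 fell, against 9.38% higher and 13% lower among all genes. H19 rose by 6.26 and its neighbour Igf2, expressed from the other parental copy, fell by 1.39 (adjusted p = 0.0235). Phlda2, an imprinted gene of the same chromosome region, rose by 2.55 (adjusted p = 0.000159), Igf2r by 1.30 and Plagl1 by 0.63, and Dlk1 fell by 0.80. Cdkn1c (0.02), Meg3 (0.53), Peg3 (0.56), Grb10 (-0.04) and Sgce (0.29) did not pass.

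Called genes were not spread evenly over chromosomes, by their positions in GRCm38.p6. Of 12017 tested genes with a position in the promoter table, 12.9% were called lower and 8.99% higher. On chromosome 10 it was 25.7% lower and 4.72% higher, and on chromosome 15, which carries Krt8 and Krt18, 27.1% lower and 8.23% higher. Chromosome X had 22.9% lower and chromosome 7 had 19.3% lower. On chromosome 14, 63 of 394 genes were higher and 6.09% lower, and chromosome 8 13.0% higher and 4.89% lower. The median change ran from -0.20 on chromosome 10 to 0.14 on chromosome 8. In 4T07 against 67NR these medians were -0.30 and 0.01. Chromosomes with too few such genes, an autosome among them, were left out. No test was made of these shares, and copy number was not measured.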
